A study of Mus musculus with 141 samples.

Results

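The cells described here are mouse granulocyte/monocyte progenitors (GMP) with little or no transcript of the transcription factor gene Gata2, set apart by their level of Irf8. They were selected on measured values. A GMP column was kept when it held at least 50000 counts on nuclear-encoded genes, at most 10% mitochondrial and at most 50% ERCC spike-in counts, and entered the comparison when Gata2 was under 100 CPM (counts per 1000000 nuclear-encoded counts). Cells with Irf8 at or above 100 CPM form the Irf8-high side and cells with less form the Irf8-low side. Of 47 GMP sequenced, 41 passed the cell filter and 23 were below the Gata2 limit, 13 of them Irf8-high and 10 Irf8-low. The other 18 kept GMP had Gata2 at or above the limit, and 6 of these had Irf8 of 100 CPM or more.

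The series profiled single bone marrow cells, each its own GEO sample, from 3 female C57BL/6 mice. The labels name no genotype, treatment or age. Besides the 47 GMP it holds 94 basophil/mast cell progenitors (BMCP). Per the labels, every GMP came from the live, lineage-negative, Kit-positive, Sca1-negative, CD34-positive, CD16/32-high gate and lay outside the gate of the BMCP. Which mouse a cell came from is not in the labels, so each side counts as 1 sample, no test between the sides was possible, and every difference below describes these 23 cells. In a single well, a gene at 0 can be a transcript that was not captured.

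GMP are bone marrow progenitors that give rise to neutrophils and monocytes. Irf8 encodes an interferon regulatory factor that binds DNA with partners such as PU.1, the product of Spi1, and mice without Irf8 have too many granulocytes and few monocytes and dendritic cells. Cebpe and Gfi1 encode transcription factors of the neutrophil path, whereas Csf1r, the receptor of macrophage colony-stimulating factor, and Ly86, which encodes the MD-1 partner of the RP105 receptor, are markers of the monocyte path. The azurophil granule genes Mpo, Elane, Prtn3 and Ctsg mark GMP and promyelocytes.

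The 13 Irf8-high cells held 16433132 nuclear-encoded counts in all, from 402637 to 2606786 per cell, and the 10 Irf8-low cells held 14647371, from 570194 to 3688848. Mitochondrial shares had medians of 7.57% and 8.31%, spike-in shares 5.63% and 6.06%, and the median number of genes in 200000 thinned reads was 5973 and 5609.5. No 2 of the 23 columns were identical. Cells are called by their replicate number. Cell 46, Irf8-low, held the 3688848 counts and so weighs most in the summed CPM of its side.

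Irf8 chose the sides and is given as a description. Among Irf8-high cells it ran from 156 CPM over a median of 351 to 2125, and among Irf8-low cells from 0 over a median of 3.34 to 69.7. The cells nearest the threshold had 69.7 and 22.9 CPM on the low side (numbers 16 and 5) and 156 and 156 on the high side (numbers 42 and 39). The highest Gata2 among the 23 was 55.8 CPM, in Irf8-low cell 9, and the lowest Gata2 among the GMP left aside was 106 CPM.

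The granule genes that mark GMP were high in all 23 cells. The gate alone does not ensure this, since Elane ran down to 6.72 CPM in the 18 kept GMP with Gata2. Elane, which encodes neutrophil elastase (chromosome 10, 79886247 to 79888215, GRCm38), ran from 1955 over a median of 6304 to 17155 CPM in Irf8-high cells and from 2750 over a median of 13344 to 23150 CPM in Irf8-low cells. Mpo, the myeloperoxidase gene, ran from 18254 to 40459 CPM with a median of 30230, and from 22146 to 68277 CPM with a median of 33344. Both genes reached 10 of 200000 thinned reads (50 CPM) in 13 of 13 and 10 of 10 cells, and the ranges of the sides overlapped widely. In 89 kept BMCP the highest Elane was 4.79 CPM.

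Over all genes, differences between the sides were frequent. A ratio, here and below, is log2 of (CPM + 1) in the summed Irf8-high cells over the same in the summed Irf8-low cells, so it is smaller than the change of a low gene. Among 12771 genes with at least 1 CPM in either side, 3243 (25.4%) stood 2-fold or more above the Irf8-low cells in the Irf8-high cells and 2466 (19.3%) stood 2-fold or more below them, with a median ratio of 0.11. A 2-fold difference was thus common between these few cells, and each count below has to be read against these shares. Of the 21 gene lists described below, 14 had a median ratio that turned sign under at least 1 other setting or without 1 cell. The 7 that kept it were the monocyte, early granulocyte, late neutrophil, cytokine receptor, innate sensing, antigen presentation and S phase genes. Apart from Irf8, 0 genes (0%) separated the sides without overlap, meaning every cell of one side above every cell of the other.

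Monocyte genes leaned to the Irf8-high side. Of 16 members besides Irf8, 15 reached 1 CPM, 8 of these were at least 2-fold higher and 2 were lower by that factor, with a median ratio of 1.03. Among the 8, Pld4 and Cybb reached 1 CPM only through the Irf8-high side. The summed level of the 16 genes ran from 1109 over a median of 2686 to 6016 CPM in Irf8-high cells and from 332 over a median of 998 to 2836 CPM in Irf8-low cells.

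Ly86 (chromosome 13, 37345208 to 37419036) was at 0 to 480 CPM in Irf8-high cells with a median of 142, and at 0 to 513 CPM in Irf8-low cells with a median of 0. It reached 10 thinned reads in 8 of 13 Irf8-high cells (61.5%, 95% Clopper-Pearson limits 31.6 to 86.1) and in 2 of 10 Irf8-low cells (20%, 2.52 to 55.6). Summed, it stood at 155 CPM (95% Poisson limits 149 to 161) against 67.6 CPM (63.4 to 71.9), 2.29-fold higher. The Poisson limits cover counting error only, and reads amplified by PCR without molecular identifiers are not independent molecules. The Clopper-Pearson limits, here and below, take cells as independent draws, although the mouse of each cell is not known. Of the Irf8-low reads of Ly86, 72.4% came from cell 5, and without it that side stood at 20.6 CPM. No kept BMCP had a read of Ly86.

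Csf1r was at 0 to 805 CPM in Irf8-high cells with a median of 107, and at 0 to 216 CPM in Irf8-low cells with a median of 0. It reached 10 thinned reads in 8 of 13 and 3 of 10 cells. The sums were 212 CPM (205 to 220) and 78.3 CPM (73.8 to 82.97), 2.71-fold higher in the Irf8-high cells. Without the cells that held 10 thinned reads of the proliferation gene Mki67, the ratio fell from 1.43 to 0.50. Of the Irf8-low reads, 69.5% came from cell 46, without which the side stood at 31.9 CPM. The highest Csf1r in a kept BMCP was 5.18 CPM.

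**Figure D1:**
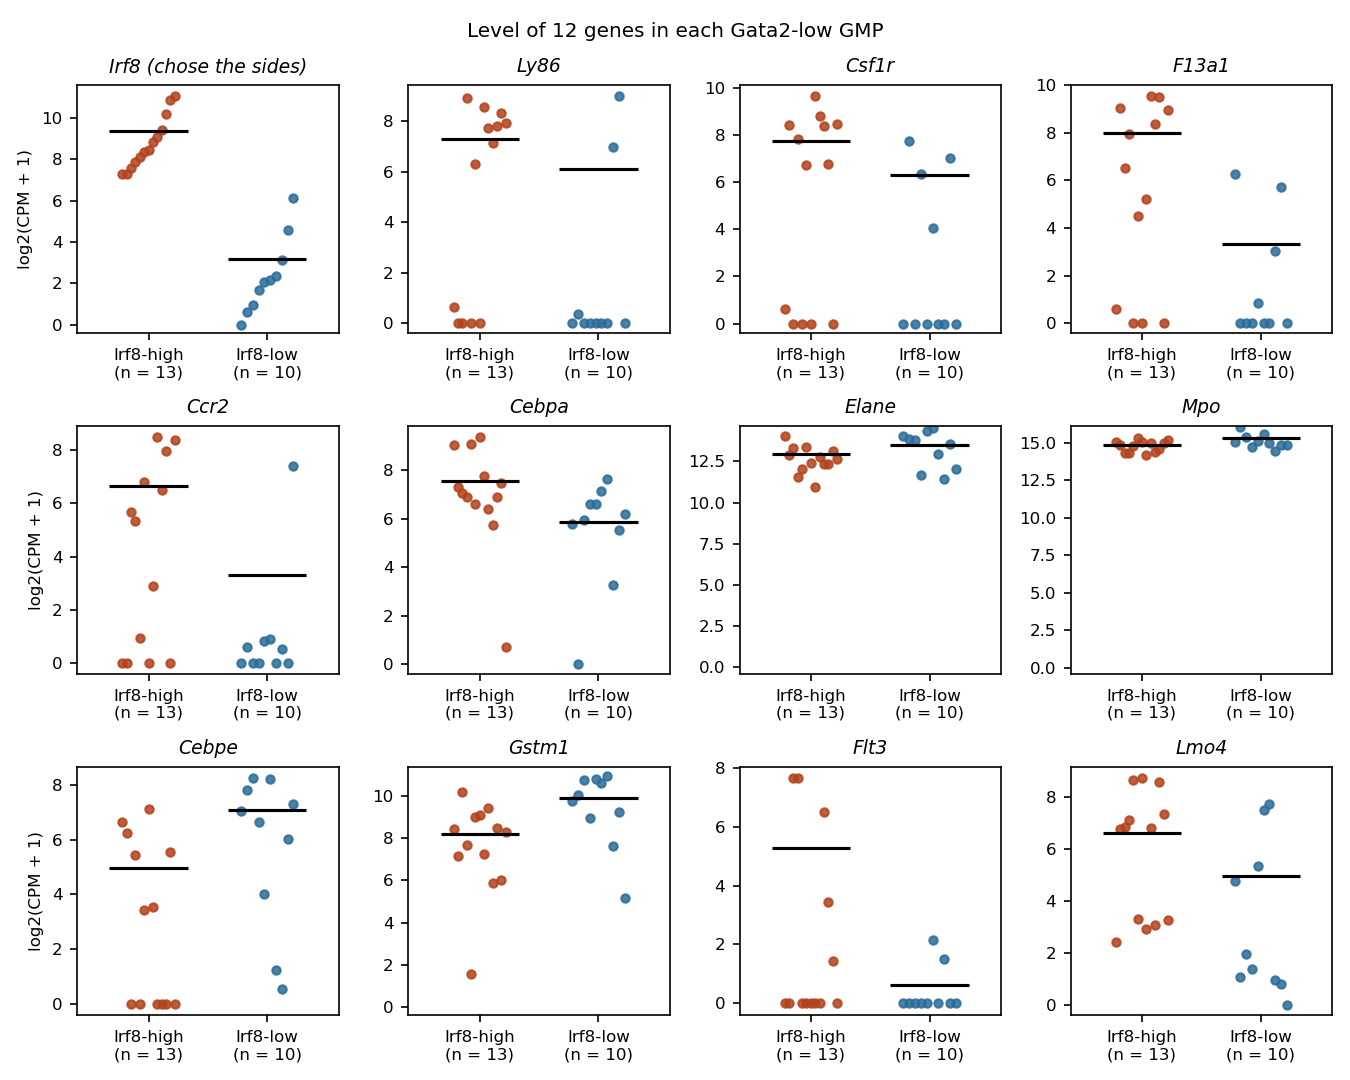
Level of 12 genes in each of the 23 Gata2-low GMP, as log2(CPM + 1), with 1 point per cell, 13 Irf8-high cells in red and 10 Irf8-low cells in blue, and a line at the level of the summed cells. Ly86, Csf1r, F13a1 and Ccr2 are split between cells at or near 0 and cells with high levels on either side, with more high cells among the Irf8-high, while Elane and Mpo are high in all.

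F13a1, which encodes the A subunit of coagulation factor XIII and is transcribed in monocytes (chromosome 13, 36867178 to 37050244) ran from 0 over a median of 91.8 to 743 CPM in Irf8-high cells and from 0 over a median of 0 to 75.4 CPM in Irf8-low cells. Summed it was 27.8-fold higher, at 251 against 9.01 CPM, and it reached 10 thinned reads in 7 of 13 and 2 of 10 cells. Cell 5 gave 54.5% of the few Irf8-low reads. Ccr2, the chemokine receptor with which monocytes leave the marrow, ran from 0 over 39.5 to 357 CPM and from 0 over 0.23 to 168 CPM. Its sums were 98.7 and 8.88 CPM, and 96.2% of the Irf8-low reads lay in cell 16, the Irf8-low cell with the most Irf8.

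Other members were present in few cells. Pld4, an exonuclease gene of monocytes and plasmacytoid dendritic cells, had 712 reads in the Irf8-high cells and 0 in the Irf8-low cells, so it was at least 212-fold higher against a floor of 3 counts over the low side. Of those reads 72.3% came from cell 28, which had the most Irf8 of all, and cells 1 and 33 gave most of the rest. Cybb, the gp91phox chain of the phagocyte oxidase, stood at 48.9 against 0.68 CPM, with 10 thinned reads in 2 Irf8-high cells and 56.3% of the reads in cell 33. Cd68, the lysosomal glycoprotein of macrophages, stood at 156 against 39.3 CPM and reached 10 thinned reads in 6 of 13 and 3 of 10 cells, and without cell 6 the Irf8-high side stood at 91.3 CPM. Klf4, a transcription factor gene of Ly6C-high monocytes, reached 10 thinned reads in 0 of 13 and 0 of 10 cells (upper 95% Clopper-Pearson limits 24.7% and 30.8%).

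More broadly transcribed members differed less. Emb, which encodes the immunoglobulin-family protein embigin, was in every Irf8-high cell, from 626 over a median of 1037 to 3080 CPM, and in Irf8-low cells ran from 6.72 over a median of 411 to 1365 CPM. The sums were 1430 and 853 CPM, and 2 Irf8-low cells, numbers 17 and 27, lay under 10 CPM. Ms4a6c, a tetraspan membrane protein gene, had medians of 205 and 103 CPM. Zeb2, a zinc finger repressor gene needed for monocytes and dendritic cells, had medians of 292 and 290 CPM.

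Fcgr1 was among the 2 members at least 2-fold lower in Irf8-high cells, and its reads on the Irf8-low side came down to a single cell. Irf8-low cell 29, with 2.16 CPM of Irf8, held 342 CPM of Fcgr1 (the high-affinity IgG receptor), 279 CPM of Tgfbi and 246 CPM of Ctss (cathepsin S). The same cell held 276 CPM of Lgmn (legumain), 80.9 CPM of Csf1r and 27507 CPM of Mpo. In the 9 other Irf8-low cells Tgfbi, Ctss and Lgmn were at 0 and Fcgr1 reached 0.80 CPM. Without this cell the median ratio of the monocyte list was 2.44 rather than 1.03.

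**Figure D2:**
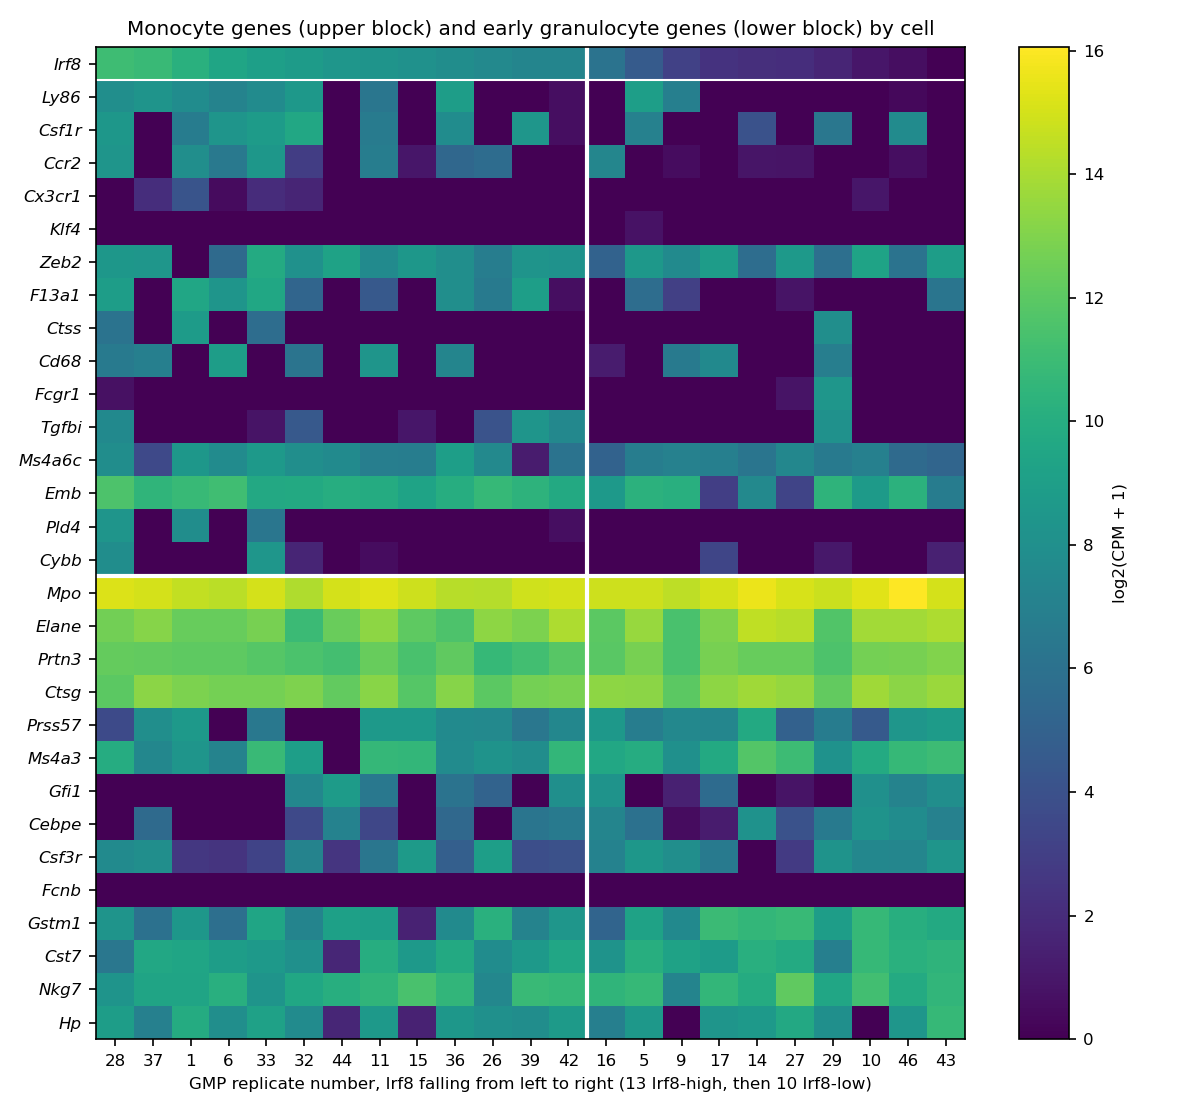
Levels of Irf8, 15 monocyte genes and 14 early granulocyte genes in each of the 23 cells, as log2(CPM + 1) on the colour scale, with cells as columns ordered by falling Irf8. Monocyte genes fill more squares on the Irf8-high side, cell 29 on the Irf8-low side holds Fcgr1, Ctss and Tgfbi, and the Mpo, Elane, Prtn3 and Ctsg rows are bright throughout.

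Early granulocyte genes stood lower in Irf8-high cells in direction, and by small factors. Of 14 members 13 reached 1 CPM, and all 13 had a ratio below 0, against 45.9% of all genes. Only 2 were at least 2-fold lower, 0 were 2-fold higher, and the median ratio was -0.58. Mpo and the members that encode granule proteases differed by less than 2-fold: summed Elane was 7780 against 11635 CPM, Mpo 30126 against 41187 CPM, Prtn3 (proteinase 3) 3976 against 5396 CPM and Ctsg (cathepsin G) 7023 against 9264 CPM. Cell 46 gave 41.7% of the Irf8-low Mpo reads, and without it that side stood at 32068 CPM.

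Cebpe, the C/EBP epsilon gene needed for neutrophil granules (chromosome 14, 54710360 to 54712174), was lowest relative to the Irf8-low side among these members. It ran from 0 over a median of 9.66 to 139 CPM in Irf8-high cells and from 0.45 over a median of 115 to 304 CPM in Irf8-low cells. The sums were 30.5 CPM (27.9 to 33.3) and 134 CPM (128 to 140), 4.40-fold lower in the Irf8-high cells. It reached 10 thinned reads in 5 of 13 (38.5%, 13.9 to 68.4) and 7 of 10 cells (70%, 34.8 to 93.3). Gstm1, a glutathione transferase gene, had medians of 313 and 978 CPM, and its sums of 297 and 961 CPM were 3.23-fold apart. Csf3r, the receptor of granulocyte colony-stimulating factor, had medians of 28.1 and 168 CPM and sums of 98.9 and 189 CPM.

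Gfi1, the repressor gene that favours neutrophils over monocytes, did not part the sides in frequency. It reached 10 thinned reads in 5 of 13 and 4 of 10 cells, with sums of 63.8 and 83.5 CPM. Within the Irf8-high side it was at 0 in cells 28, 37, 1, 6 and 33, which had the highest Irf8, from 545 to 2125 CPM, and its highest level of 455 CPM was in cell 44, with 351 CPM of Irf8. Cells 15 and 39 also had no read of it. In the same 5 cells Cebpe was at 0 except for 46.2 CPM in cell 37, and it was also at 0 in cells 26 and 15, with 191 and 276 CPM of Irf8.

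Late neutrophil genes were scarce on both sides. Of 15 members 5 reached 1 CPM, 1 of them at least 2-fold higher and 2 lower. The higher one, Padi4, stood at 11.4 against 0 CPM, with its highest level of 315 CPM in Irf8-high cell 1. Their median ratio was -0.38, or -3.62 without cell 36, -1.12 with the mean of CPM, -1.24 with thinned reads and -1.81 without the cells with Mki67. Ltf, Camp, S100a9, Mmp8, Mmp9, Retnlg, Chil3 and Cd177 had 0 reads in all 23 cells. S100a8, a calprotectin subunit gene, had 377 reads in the Irf8-low side and 0 in the Irf8-high side, at least 141-fold lower against the floor of 3 counts, and reached 10 thinned reads in 3 of 10 cells. Lcn2 (lipocalin 2) had 165 reads in the Irf8-low side and 0 in the other, and 86.7% of them came from cell 46.

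Monocyte markers and neutrophil regulators shared some cells on both sides. At 10 thinned reads, Ly86 and Csf1r occurred together in 7 of 13 Irf8-high cells and 1 of 10 Irf8-low cells. At least 1 of Ly86 and Csf1r together with at least 1 of Gfi1 and Cebpe was seen in 5 of 13 Irf8-high cells (38.5%, 13.9 to 68.4) and 3 of 10 Irf8-low cells (30%, 6.67 to 65.2). The monocyte pair without the neutrophil pair was seen in 4 and 1 cells, the neutrophil pair without the monocyte pair in 2 and 4 cells, and neither in 2 and 2 cells. Elane reached 10 thinned reads in all 23 cells, so its overlap with Ly86 or Csf1r carries no further information.

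The share of cells at 10 thinned reads gives a second view in which each cell counts once, whatever its level. A single cell still makes up 10 percentage points of the Irf8-low share. A gap of 25 percentage points, a limit chosen after the values were seen, was met by 760 genes (5.95%) in favour of the Irf8-high cells and by 546 genes (4.28%) in favour of the Irf8-low cells. On this measure the monocyte genes Ly86, Csf1r, F13a1 and Ccr2 had gaps of 41.5, 31.5, 33.8 and 28.5 points towards the Irf8-high cells. Cebpe and Csf3r, with gaps of -31.5 and -33.8 points, were the 2 early granulocyte genes past the limit towards the Irf8-low cells.

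Among IRF family members and partners the PU.1 gene Spi1 was near even. It ran from 37.7 over a median of 395 to 615 CPM in Irf8-high cells and from 86.6 over a median of 454 to 647 CPM in Irf8-low cells. Of 16 listed genes 11 reached 1 CPM, 2 were at least 2-fold higher and 1 lower, and the median ratio was 0.49. Irf9, the DNA-binding part of the interferon-activated ISGF3 complex, stood at 176 against 44.1 CPM, yet 55.5% of the high side's reads came from cell 6 and 81.7% of the low side's from cell 9. Irf1 stood at 111 and 114 CPM. Irf4, Batf2, Batf3 and Spib had 0 reads.

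Among lineage transcription factors 25 of 33 reached 1 CPM, with 2 at least 2-fold higher, 4 lower and a median ratio of -0.29. Cebpa, the C/EBP alpha gene required to form GMP, ran from 0.66 over a median of 132 to 658 CPM in Irf8-high cells and from 0 over a median of 66.7 to 195 CPM in Irf8-low cells. Its sums of 188 and 57.01 CPM were 3.30-fold apart, and it reached 10 thinned reads in 12 of 13 and 7 of 10 cells. With an Irf8 threshold of 200 CPM its ratio was 0.36 rather than 1.70. Lmo4, which encodes a LIM-domain cofactor, ran from 4.29 over 111 to 422 CPM and from 0 over 2.24 to 211 CPM, with sums of 95.2 and 30.2 CPM. Cells 14 and 17 held most of the Irf8-low reads of Lmo4, and without cell 14 that side stood at 17.3 CPM. With a Gata2 limit of 10 CPM the ratio of Lmo4 was 0.83 rather than 1.63. Myb, a progenitor transcription factor gene, had medians of 525 and 599 CPM. Ikzf2, the Helios gene, had sums of 52.6 and 123 CPM, and 55.5% of the latter came from cell 9.

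Cytokine and growth factor receptor genes were more often higher than lower in Irf8-high cells, while their summed level was 2477 CPM there and 2483 CPM in Irf8-low cells. Of 23 members 22 reached 1 CPM, 9 were at least 2-fold higher, 1 was lower and the median ratio was 0.51. Among the 9, Epor had reads only in cell 11, Il5ra only in cell 39 and Il1r1 only in cells 28 and 33. These 3 had 0 Irf8-low reads and reached 1 CPM only through the side where they were higher. Flt3 and Il6st, also among the 9, likewise reached 1 CPM only on that side, Il6st at 15.6 against 0.07 CPM. Flt3, the receptor of a dendritic cell and progenitor growth factor, stood at 38.1 CPM against 0.55 CPM and reached 10 thinned reads in 3 of 13 and 0 of 10 cells, with 48.2% of its reads in cell 36. Without the cells with Mki67 its ratio was 0.27 rather than 4.66. Ifngr2, a chain of the interferon gamma receptor, stood at 34.3 and 15.98 CPM and reached 10 thinned reads in 5 of 13 and 0 of 10 cells, and without cell 9 the Irf8-low side stood at 7.55 CPM. Ifnar2, a chain of the type I interferon receptor, had medians of 146 and 31.2 CPM and reached that level in 11 of 13 and 5 of 10 cells. Kit, which the sort required at the surface, had medians of 200 and 427 CPM.

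Innate sensing genes had the highest median ratio of the lists, 1.12, from 12 of 17 members at 1 CPM, with 7 at least 2-fold higher and 2 lower, Ly86 among the 7. Also among the 7, Ly96, Clec7a and Nlrp3 each had reads in a single cell, Irf8-high numbers 28, 33 and 6. These 3 reached 1 CPM only through the side where they were higher. So did Cd180, also among the 7, at 23.2 against 0 CPM. With genes of at least 10 CPM the median was 0.46, and the summed level of the list had a median over cells of 1279 CPM on the Irf8-high and 1306 CPM on the Irf8-low side. Unc93b1, the chaperone gene of endosomal Toll-like receptors, ran from 0 over a median of 360 to 1080 CPM in Irf8-high cells and from 0 over a median of 46.9 to 447 CPM in Irf8-low cells. Its sums were 395 and 136 CPM. Myd88, the adaptor of Toll-like receptors, stood at 68.8 and 32.6 CPM, with 97.7% of the latter in cell 46 and a median of 30.01 against 0.27 CPM. The receptor genes themselves were rare: Tlr1, Tlr9, Tlr13 and Nod2 had 0 reads, and Tlr4 and Tlr6 had most of their reads in a single Irf8-low cell each, numbers 10 and 14.

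**Figure D3:**
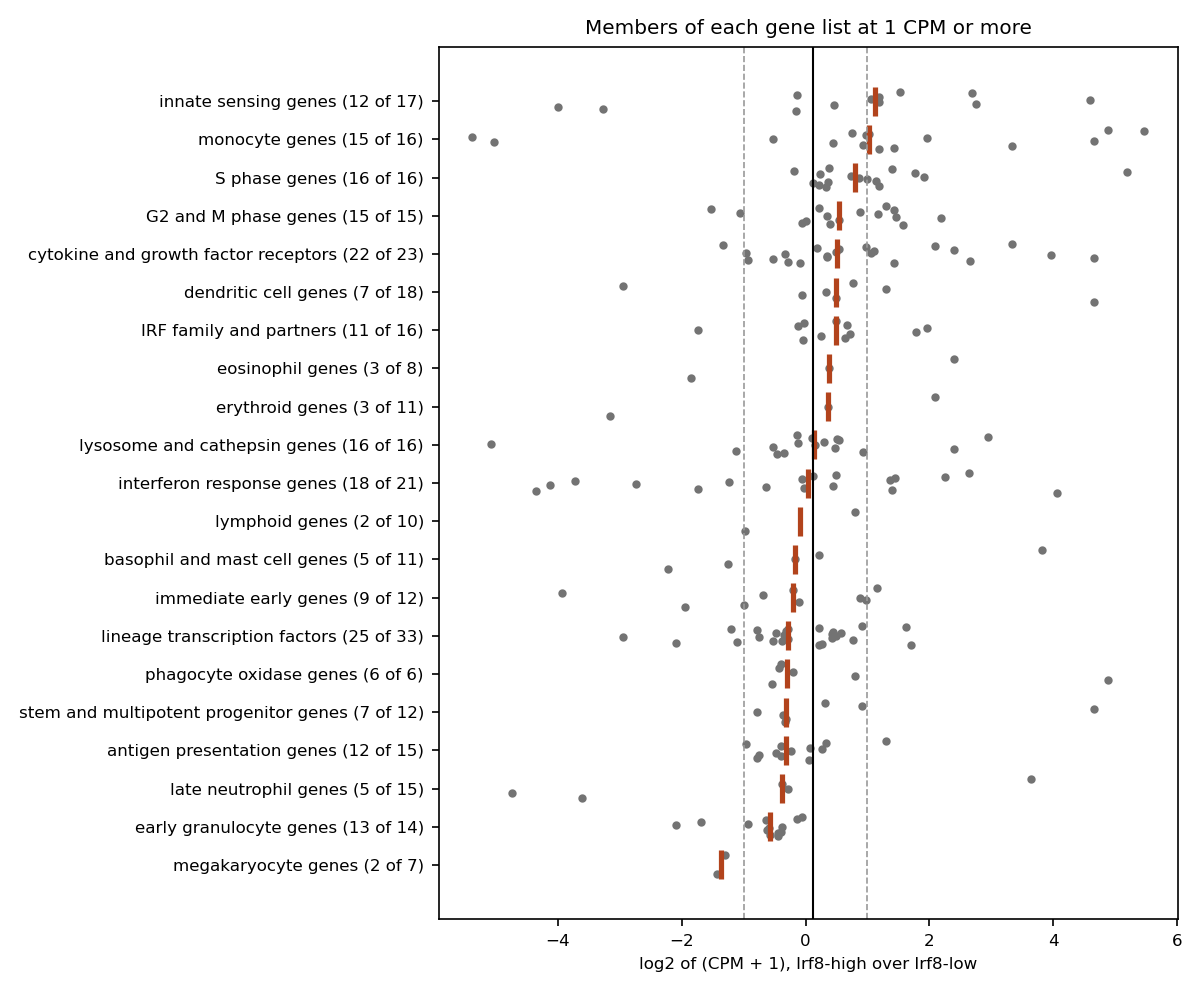
Ratio of every list member at 1 CPM or more, as log2 of (CPM + 1) in Irf8-high over Irf8-low cells, with 1 grey point per gene, a red bar at the list's median, a black line at the median of all 12771 genes (0.11) and dashed lines at a 2-fold difference. Innate sensing, monocyte and S phase genes have the rightmost medians, all 13 early granulocyte genes lie left of 0, and most lists spread across both dashed lines.

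Dendritic cell genes were mostly absent. Of 18 members 7 reached 1 CPM, with 2 higher, 1 lower and a median ratio of 0.50. Siglech, Cd209a, H2-Aa, Cd74, Ciita, Xcr1, Batf3, Zbtb46, Itgax, Clec9a and Spib had 0 reads in the 23 cells. Tcf4, the E2-2 gene of plasmacytoid dendritic cells, had sums of 84.2 and 59.3 CPM. Antigen presentation genes, 12 of 15 at 1 CPM, had a median ratio of -0.31 with 1 higher and 0 lower, and B2m, the class I light chain, had medians of 3504 and 3388 CPM.

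Interferon response genes pointed in no common direction, with 18 of 21 at 1 CPM, 6 higher, 6 lower and a median ratio of 0.05. Ifitm1, an interferon-induced membrane protein gene, had sums of 92.3 and 18.6 CPM, and Oas1a, an oligoadenylate synthetase gene, 1.10 and 35.8 CPM. Ifitm3 reached 10 thinned reads in 12 of 13 and 5 of 10 cells. Lysosome and cathepsin genes had a median ratio of 0.13, with 2 of 16 higher and 2 lower. Ctsh (cathepsin H) stood at 163 and 30.3 CPM, or 89.4 and 10.5 CPM without cell 28 on the high side and cell 46 on the low side, and Ctsd (cathepsin D) at 374 and 818 CPM. Phagocyte oxidase genes, all 6 at 1 CPM, had a median ratio of -0.30 with Cybb alone 2-fold higher.

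S phase genes were higher in Irf8-high cells in 15 of 16 cases, against 54.1% of all genes, with 6 at least 2-fold higher, 0 lower and a median ratio of 0.80. Rrm2, a subunit gene of ribonucleotide reductase, ran from 0 over a median of 139 to 1282 CPM in Irf8-high cells and from 0 over a median of 5.44 to 375 CPM in Irf8-low cells. It reached 10 thinned reads in 10 of 13 and 4 of 10 cells, and with an Irf8 threshold of 200 CPM its ratio was 0.27 rather than 1.91. Summed over the 16 genes, the level ran from 32.3 over a median of 4770 to 7699 CPM in Irf8-high cells and from 1650 over a median of 3093 to 3924 CPM in Irf8-low cells. Cell 44 held the lowest sum of both sides, and 7 Irf8-high cells, numbers 1, 36, 42, 28, 32, 37 and 11, lay above every Irf8-low cell.

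G2 and M phase genes, 15 of 15 at 1 CPM, had a median ratio of 0.54 with 6 higher and 2 lower, and they rested on few cells. Mki67, the Ki-67 proliferation antigen gene, stood at 194 and 64.2 CPM with 10 thinned reads in 6 of 13 and 4 of 10 cells. Cell 6 held 65.8% of the Irf8-high Mki67 reads, and without it the median ratio of the 15 genes was -0.36. Without cell 9, which held 51.4% of the Irf8-low Mki67 reads, that median was 2.29. Without the cells at 10 thinned reads of Mki67, which left 7 Irf8-high and 6 Irf8-low cells, the medians of the monocyte and early granulocyte lists were 0.91 and -0.45.

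**Figure D4:**
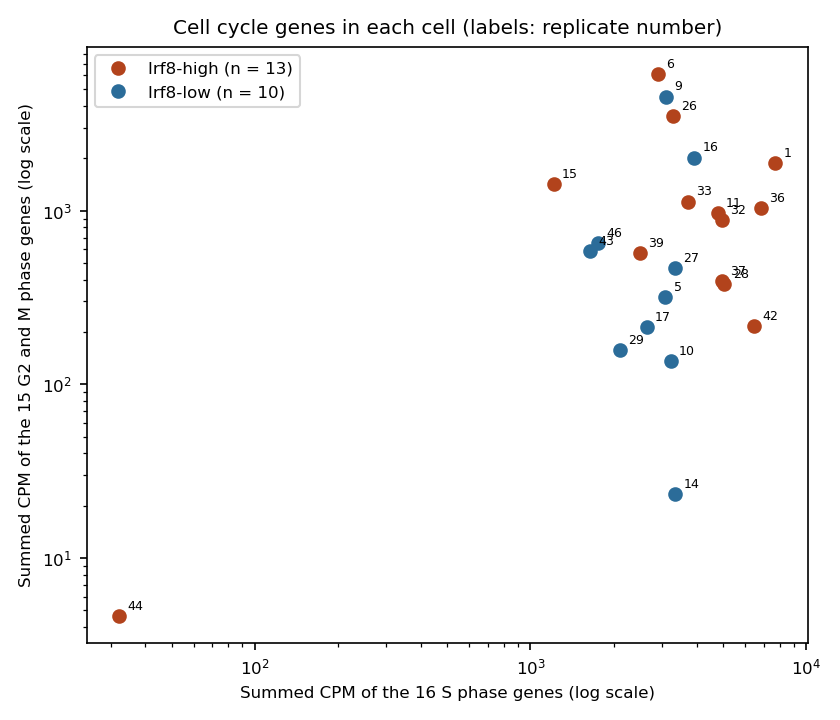
Summed CPM of 16 S phase genes (horizontal, log scale) and of 15 G2 and M phase genes (vertical, log scale) in each cell, with Irf8-high cells in red, Irf8-low cells in blue and replicate numbers beside the points. Cell 44 lies apart at 32.3 and 4.62 CPM, 7 Irf8-high cells lie right of all Irf8-low cells, and the vertical ranges overlap.

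Stem and multipotent progenitor genes had 7 of 12 members at 1 CPM, 1 higher, 0 lower and a median ratio of -0.31. Cd34 ran from 217 over 691 to 2027 CPM in Irf8-high cells and from 9.54 over 813 to 1578 CPM in Irf8-low cells. Immediate early genes, 9 of 12 at 1 CPM, had 1 higher, 3 lower and a median of -0.20. Ier3, which is also among the 12 genes furthest lower in Irf8-high cells, stood at 2.62 and 54.4 CPM with 10 thinned reads in 1 of 13 and 5 of 10 cells.

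Most markers of other lineages stayed under 1 CPM on both sides, but a few members were high in some cells. The summed basophil and mast cell list had medians over cells of 205 CPM (Irf8-high) and 287 CPM (Irf8-low). Its highest levels were 1217 and 1733 CPM. The summed lymphoid list had medians of 156 and 156 CPM and highest levels of 912 and 518 CPM. Basophil and mast cell genes had 5 of 11 at 1 CPM, 1 higher, 2 lower and a median of -0.18. Cpa3, the mast cell carboxypeptidase gene, stood at 38.9 and 185 CPM, with 50.5% of the latter in cell 46, against 1869 CPM in the GMP with Gata2 and 5612 CPM in kept BMCP. Eosinophil genes had 3 of 8 at 1 CPM, with 1 higher, 1 lower and a median of 0.38. Erythroid genes had 3 of 11, with 1 higher, 1 lower and a median of 0.36. Megakaryocyte genes had 2 of 7, both lower, with a median of -1.37. Lymphoid genes had 2 of 10, none 2-fold apart, with a median of -0.09. Their part in the differences was not tested.

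Beyond the lists, the rule for named genes gave 12 genes in each direction, all of which had at least 20 CPM in the higher side and reads in at least 50% of its cells. Among the 12 higher genes were Wdr3, Lin9, Med7, Kif2a, Mex3c, Txndc5, Lmbrd1, Ano6, Adap1, F13a1 and Pmm1. Txndc5, a protein disulfide isomerase gene of the endoplasmic reticulum, had the highest summed level after F13a1, at 223 against 4.98 CPM, with 10 thinned reads in 8 of 13 and 0 of 10 cells. Wdr3, which encodes a WD-repeat protein of ribosome assembly, had 1809 reads in the Irf8-high side and 1 in the other, and 10 thinned reads in 7 of 13 and 0 of 10 cells. Lin9, which encodes a subunit of the cell cycle complex MuvB, had 940 and 0 reads, at least 279-fold higher against the floor.

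The 12 lower genes were Ndst2, AU022252, Dis3l, Mfn2, Ift46, Sh2d3c, Btrc, Ier3, Nrf1, Aamdc, Tmem115 and Gtf2ird2. Nrf1, the nuclear respiratory factor gene, stood at 12.1 and 189 CPM and reached 10 thinned reads in 2 of 13 and 6 of 10 cells. Mfn2, the mitofusin 2 gene, stood at 3.16 and 90.8 CPM and reached that level in 0 of 13 and 5 of 10 cells. Ndst2, a heparan sulfate and heparin sulfotransferase gene, stood at 0.67 and 58.1 CPM. These genes were chosen for the size of their ratio, so their values describe the extremes of 12771 genes.

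The promoters of both lists were searched for sequence motifs, as 300 bases from 250 before to 50 after the start in RefSeq on GRCm38. The interferon response core (GAAA, 2 bases of any kind, then GAAA, on either strand) was in 3 of the 14 monocyte genes with a promoter entry and in 0 of the 11 early granulocyte genes, against 3.99% of 27025 genes. The ETS and IRF composite element (GGAA, then GAAA after a spacing of 2 bases of any kind) was in 2 and 0, against 3.16%, and with a spacing of 3 in 2 and 0, against 3.17%. The C/EBP element (TTGC, then AA after 2 bases of any kind) was in 2 and 4, against 12.2%. The first of these motifs can overlap the composite elements, and a match shows that the letters are present, not that a factor binds. Of the genes that hold the first motif, Tgfbi had reads in several Irf8-high cells and in cell 29. Ctss had 442, 52.7 and 66.9 CPM in Irf8-high cells 1, 33 and 28, and 246 CPM in cell 29. It had no reads in the remaining cells, and summed it stood lower on the Irf8-high side. Cybb had 346 and 229 CPM in Irf8-high cells 33 and 28, at most 2.16 CPM in the other Irf8-high cells and up to 9.41 CPM, in cell 17, on the Irf8-low side. Whether the product of Irf8 acts on any of these genes was not tested. A match is shown for each of these 3 genes, the monocyte genes found with the interferon response core. Cybb held further matches that are not shown. A C/EBP match in Gfi1 is shown as a contrast. The motif is in capitals and the gene's strand runs 5′ to 3′.
Ctss, interferon response core, chr3:95526745-95526785, plus strand: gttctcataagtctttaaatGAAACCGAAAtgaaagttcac
Tgfbi, interferon response core, chr13:56609372-56609421, plus strand: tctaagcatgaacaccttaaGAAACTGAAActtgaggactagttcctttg
Cybb, interferon response core, chrX:9469325-9469373, minus strand: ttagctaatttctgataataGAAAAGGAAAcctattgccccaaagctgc
Gfi1, C/EBP element, chr5:107725921-107725968, minus strand: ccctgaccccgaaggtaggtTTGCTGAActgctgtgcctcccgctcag

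Set against the 18 kept GMP with Gata2, Ly86 and Csf1r were present there too. Ly86 had a median of 0 and a highest level of 299 CPM in them, and Csf1r a median of 0 and a highest level of 607 CPM. Their Elane ran from 6.72 to 19303 CPM with a median of 2094, so some of them lay far below the lowest of the 23 cells, 1955 CPM. Cebpe had a median of 0.66 CPM there, against 9.66 and 115 CPM in the Irf8-high and Irf8-low cells.

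**Figure D5:**
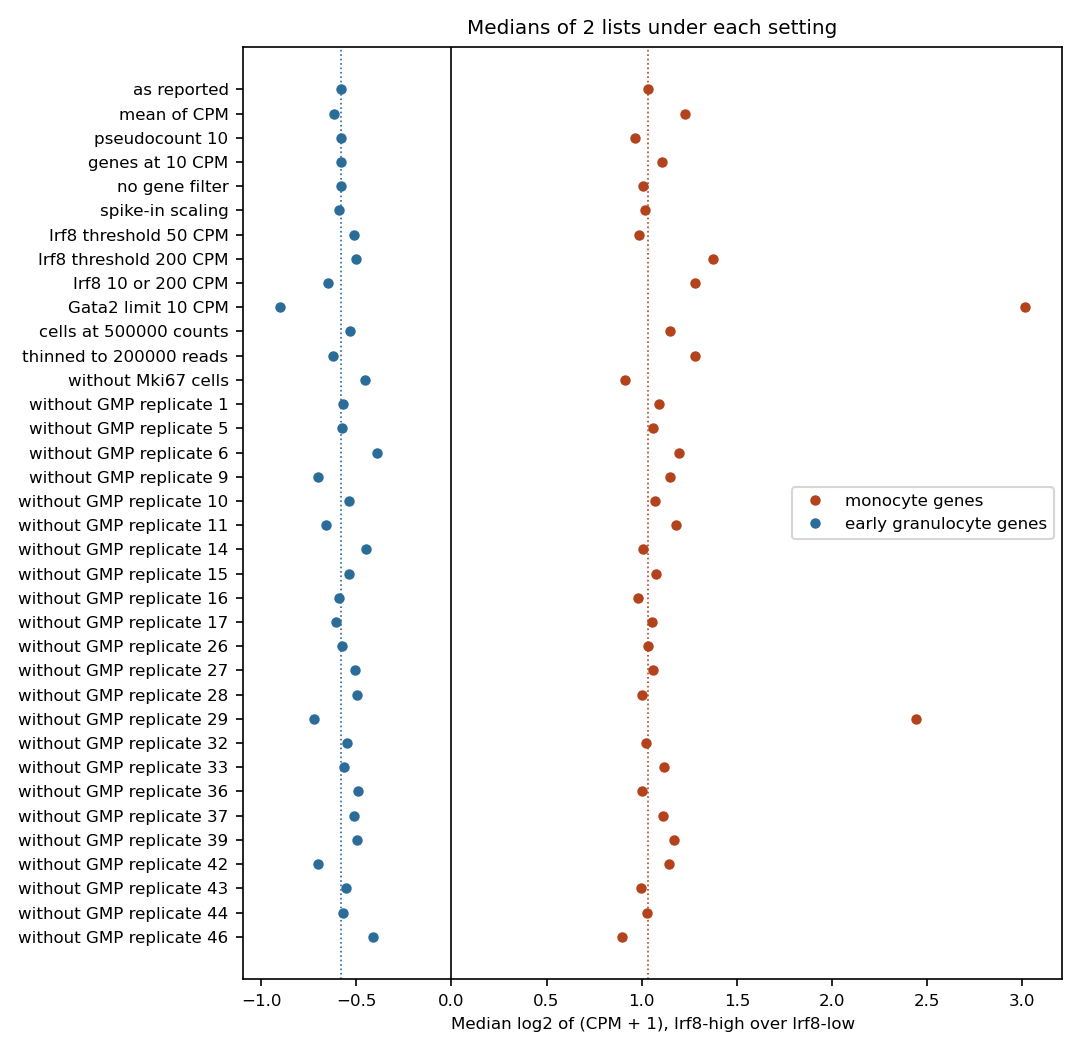
Median ratio of the monocyte genes (red) and of the early granulocyte genes (blue), as log2 of (CPM + 1) in Irf8-high over Irf8-low cells, as reported (dotted lines, 1.03 and -0.58), under 12 other settings and without each of the 23 cells in turn. The red points stay right of 0 and the blue points left of 0 in every row, and without cell 29 the monocyte median is 2.44.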

How the data were processed

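The authors deposited raw read counts for each gene in each cell. GSNAP, HTSeq 0.5.3p3 and build mm10 were used, per the submitters' processing notes, and which gene annotation was counted is not given in the sources used. Per the labels' protocols, polyA RNA was primed with oligo-dT and amplified by PCR with ERCC spike-ins. No molecular identifiers or strand are named, so reads where genes overlap cannot be parted by strand. Near-identical copies, such as Csf2rb and Csf2rb2, have separate counts, but reads that match both cannot be parted. GENCODE vM21 on GRCm38, the assembly of mm10, gave symbols for 45106 of 46078 gene rows and the coordinates.

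Rows for unaligned, ambiguous and feature-free reads stayed out of totals (medians 29.3%, 6.52% and 10.9% of reads in Irf8-high cells, 29.3%, 7.62% and 13.0% in Irf8-low cells). CPM was computed over nuclear-encoded genes, without the 37 mitochondrial genes. Counts were summed over the cells of a side, and ratios used a pseudocount of 1 CPM and genes with at least 1 CPM in either side. Each cell was also thinned to 200000 reads with a fixed seed. Limits are 95% Poisson or Clopper-Pearson. The ratio step was tested on simulated counts. Python 3.11.15, numpy 2.4.6, pandas 2.3.3 and scipy 1.17.1 were used. Labels pair no cells, each side was 1 sample, and no test was run.

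The members and the 21 gene lists were chosen with earlier results of these data known. Every list member could be named, beyond them the 12 largest ratios per direction among genes with at least 20 CPM and 2 thinned reads in at least 50% of the higher side's cells, no cell giving 50% of its reads, and the same direction in the mean of CPM. Within a list, examples were the largest ratios among members with at least 10 CPM, and further members were picked after their values were seen. The values of 3 genes are not reported here. Alternatives were 12 other settings and leaving out each of 23 cells. Doublets were not called, since a well was sorted with 1 cell.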

Additional observations from a re-analysis of the deposited data

Results flagged for a closer look

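In the 10 Irf8-low cells, 23 of 115 values tested had a cell far from the other 9 on the log2(CPM + 1) scale, by Dixon's gap test at its 95% critical value. No such flags are given for the 13 Irf8-high cells, so the flags do not set the sides apart. Chance flags about 1 in 20 groups of normally distributed values. In a gene at 0 in most cells a single read is enough to be flagged, so the number of flagged values cannot be set against that rate. The cell was the lowest of its side for Ctsd, Kit and Cd34 and the highest for the others.

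Cell 29 stood apart in 5 genes. It held 342 CPM of Fcgr1, 276 CPM of Lgmn, 279 CPM of Tgfbi, 246 CPM of Ctss and 35.05 CPM of Txndc5, against highest levels of 0.80, 0, 0, 0 and 2.86 CPM in the other cells of that side.

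Cell 16, with the most Irf8 of the side, stood apart in Ccr2 (168 CPM), Lmbrd1 (6.70 CPM) and Ccne1 (6.70 CPM). Cell 46, the deepest, stood apart in Myd88 (126 CPM), Itgb3 (91.1 CPM) and Wdr3 (0.27 CPM, a single read). Cell 43 stood apart in Irf7 (281 CPM) and Pmm1 (19.3 CPM). Cell 14 stood apart in Ifit2 (246 CPM), Tlr6 (168 CPM) and Slc18a2 (26.9 CPM).

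Cell 9, which had the most Gata2 of the side, stood apart in Cenpf (133 CPM) and Il6st (0.45 CPM, a single read). Cell 10 stood apart in Tlr4 (327 CPM) and, at the low end, in Cd34 (9.54 CPM, where the next cell had 119). Cell 17 stood apart in Cybb (9.41 CPM) and, at the low end, in Ctsd (10.8 CPM, where the next had 316). Cell 5 stood apart at the low end in Kit (9.31 CPM, where the next had 112).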

How the results depend on the processing

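The monocyte and early granulocyte medians kept their sign under the 12 other settings and without each of the 23 cells. The early granulocyte median lay between -0.90 and -0.45 over the settings and between -0.72 (without cell 29) and -0.39 (without cell 6). The monocyte median lay between 0.90 (without cell 46) and 2.44 (without cell 29), and was 3.01 with a Gata2 limit of 10 CPM, which left 12 and 8 cells. The 3243 higher and 2466 lower genes became 1690 and 1360 with a pseudocount of 10 CPM, and 2156 higher with genes of at least 10 CPM, since fewer genes or smaller ratios enter; leaving out a cell moved them between 3139 and 3575 and between 2394 and 2582. The higher share of these genes was 56.8%, and 48.7% to 60.1% over the settings. Setting genes at 0 in a side to their bound moved no list median. That step only takes ratios already 2-fold or more from 0 further out, so it could hardly move a median.

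The medians of 14 of the 21 lists turned sign under at least 1 alternative, and the cause was not tested. The highest values of medians below 0 as reported were 0.83 for phagocyte oxidase genes (without cell 46), 0.89 for stem genes (thinned reads), 0.23 for lineage transcription factors (without cell 9), 0.57 for immediate early genes (without cell 27), 0.05 for basophil and mast cell genes (without cell 36) and 1.99 for lymphoid genes (without cell 46). The lowest values of medians above 0 as reported were -0.45 for dendritic cell genes, -0.10 for IRF family and partners, -0.45 for interferon response genes and -1.61 for eosinophil genes over the settings, and -0.05 for lysosome genes (without cell 28), -0.36 for G2 and M phase genes (without cell 6) and -1.29 for erythroid genes (without cell 11). The megakaryocyte median was 0.51 with the mean of CPM and 0.52 with thinned reads, and Itgb3 was 1.35 and 1.30. With an Irf8 threshold of 200 CPM, Cd180 was -1.71 and Ifit1 -3.91, and with cells between 10 and 200 CPM left out Cxcr4 was 0.13. With a Gata2 limit of 10 CPM, Lgmn was 0.091, Bub1 0.27 and Cenpf 3.30. Without cells with Mki67, Irf7 was 2.49, Bub1 4.37 and Cenpf 4.03. Leaving out a cell moved Bub1 between -2.92 and 0.40, Cenpf between -2.70 and 3.23, Tlr4 between -3.75 and 1.33, Lgmn between -5.49 and 0.085, Zfp36 between -0.0047 and 2.45, Irf7 between -3.49 and 1.83 and Itgb3 between -2.16 and 3.16. With an Irf8 threshold of 200 CPM the ratio of Lmbrd1 was 0.0020, of Ano6 0.39 and of Ifitm1 0.48, under 2-fold. Of the other values of named genes, 279 of those under the 12 settings moved by more than 1.5-fold and 1174 by less. No paired analysis was possible because the labels give no number that the cells of the sides share and no test was run. The numbers of cells, 13 and 10, set the width of the limits on shares of cells.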
